A study of Homo sapiens with 6 samples.

Results

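The genes of the cytosolic ribosome were examined for the tagged protease MMP-2 and for H3K4me3 in U2OS, a line of human osteosarcoma cells. Members were the protein coding genes, on chromosomes 1 to 22 and X, whose symbol is RPL or RPS followed by a number, with or without a closing A or X, and the 3 RPLP genes. This gave 76 genes of the 20098 protein coding genes in the GENCODE annotation of GRCh37. Of these, 43 code for large subunit proteins, 3 for the stalk of the large subunit and 30 for small subunit proteins. Each gene was scored at the transcription start site (TSS) of its canonical transcript, and a peak or region was assigned to it when it lay within 1 kb of the TSS.

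All cells were U2OS cells harvested 2 days past confluence. In the line called ProMMP2-3xHA, the HA antibody binds the product of an added construct. It codes for full-length pro-MMP2, the precursor of the protease, with 3xHA at its C-terminal end. The construct is carried stably and is always on, and wild type (WT) cells lack it. Native ChIP-Seq, in which nucleosomes released by micrococcal nuclease are immunoprecipitated without a crosslink, was done with an HA antibody in 3 independent replicates of ProMMP2-3xHA cells, and with an H3K4me3 antibody in 1 library of ProMMP2-3xHA cells and 1 library of WT cells. The WT library made with the HA antibody had no separate list among those used here, and an HA control immunoprecipitation served as the background of the HA replicates by the names of the lists. The lists held 6401, 9193 and 8933 HA peaks in replicates 1, 2 and 3, 7216 HA regions called on the merged replicates, and 19102 and 17130 H3K4me3 regions in ProMMP2-3xHA and WT cells. Fold enrichment is the height of a peak at its summit over the local background of the control, as the peak caller gave it.

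Most ribosomal proteins are made in equal numbers for each ribosome, and ribosomal protein genes are among the most transcribed in dividing cells. Their mRNAs typically start at a C within a run of pyrimidines, the 5′ terminal oligopyrimidine (TOP) motif, through which mTOR signalling controls their translation. H3K4me3 marks the nucleosomes that flank an active TSS. MMP-2 is a metalloproteinase best known outside the cell.

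The promoters at either end of the HA range are shown first, because the results below return to them. They are the 3 members with the highest mean HA fold enrichment (RPL3, RPL10 and RPS27) and 3 members with H3K4me3 but no HA peak in any list (RPL21, RPS25 and RPS7). Each run covers 100 bases before the annotated start and the first 20 transcribed bases, on the strand of the gene in GRCh37, and capitals mark the pyrimidine run that holds the start base. The positions are chr22:39715609-39715728 (minus strand) for RPL3, chrX:153626618-153626737 (plus strand) for RPL10 and chr1:153963138-153963257 (plus strand) for RPS27. They are chr13:27825595-27825714 (plus strand) for RPL21, chr11:118889034-118889153 (minus strand) for RPS25 and chr2:3622750-3622869 (plus strand) for RPS7.
RPL3: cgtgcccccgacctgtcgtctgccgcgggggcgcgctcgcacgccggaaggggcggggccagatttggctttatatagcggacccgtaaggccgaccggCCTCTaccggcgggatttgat
RPL10: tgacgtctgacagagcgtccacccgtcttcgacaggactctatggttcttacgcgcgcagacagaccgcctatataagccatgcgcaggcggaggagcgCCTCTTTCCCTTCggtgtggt
RPS27: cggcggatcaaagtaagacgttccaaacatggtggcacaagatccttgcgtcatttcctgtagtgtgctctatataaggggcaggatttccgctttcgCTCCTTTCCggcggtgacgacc
RPL21: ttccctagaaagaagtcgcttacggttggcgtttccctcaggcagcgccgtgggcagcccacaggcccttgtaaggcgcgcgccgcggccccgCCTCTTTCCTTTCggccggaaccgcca
RPS25: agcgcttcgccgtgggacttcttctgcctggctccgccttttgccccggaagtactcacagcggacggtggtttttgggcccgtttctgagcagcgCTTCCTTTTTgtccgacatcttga
RPS7: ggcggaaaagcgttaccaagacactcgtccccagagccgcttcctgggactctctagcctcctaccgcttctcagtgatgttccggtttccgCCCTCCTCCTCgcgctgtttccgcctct
The pyrimidine run was 5, 13 and 9 bases long at RPL3, RPL10 and RPS27, and 13, 10 and 11 bases long at RPL21, RPS25 and RPS7. It was 13 bases long at RPL30, which also had H3K4me3 and no HA peak and is not shown. The letters TATATA lay 29 to 30 bases before the start at each of the first 3 promoters and were not found in the other 3 windows.

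Nearly every ribosomal protein gene carried H3K4me3, and most carried HA. An H3K4me3 region lay within 1 kb of 75 of the 76 TSSs in ProMMP2-3xHA cells and at the same number in WT cells, against 60.5% and 64.3% of all other protein coding TSSs. A merged HA region lay within 1 kb of 65 of the 76 TSSs (85.5%, exact 95% binomial interval over genes 75.6 to 92.5%). This interval treats genes as independent and holds no variation between replicates. The 12118 other TSSs with H3K4me3 in ProMMP2-3xHA cells gave the background. Among TSSs with H3K4me3, 86.7% of members and 48.8% of the others had a merged HA region. Each region belonged to 1 member, so the 65 members rested on 65 separate regions.

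The replicate lists gave the same order. In replicate 1, 60 of the 75 members with H3K4me3 (80%) had an HA peak against 35.3% of the other TSSs. In replicate 2 the shares were 82.7% and 47.7%, and in replicate 3 they were 88.0% and 49.5%. The difference was 39.4 ± 4.96 percentage points (SD, n = 3), above 0 in 3 of 3 replicates, and an exact two-sided sign permutation test gave p = 0.25, the smallest that 3 replicates allow. A peak in every replicate was found at 56 members (74.7% of those with H3K4me3) against 28.0% of the other TSSs. A peak was found in 2 replicates at 5 members, in 1 replicate at 10 members and in none at 5 members. Among TSSs with H3K4me3, these shares were 6.67, 13.3 and 5.33% of members and 15.9, 16.7 and 39.4% of the others.

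**Figure D1:**
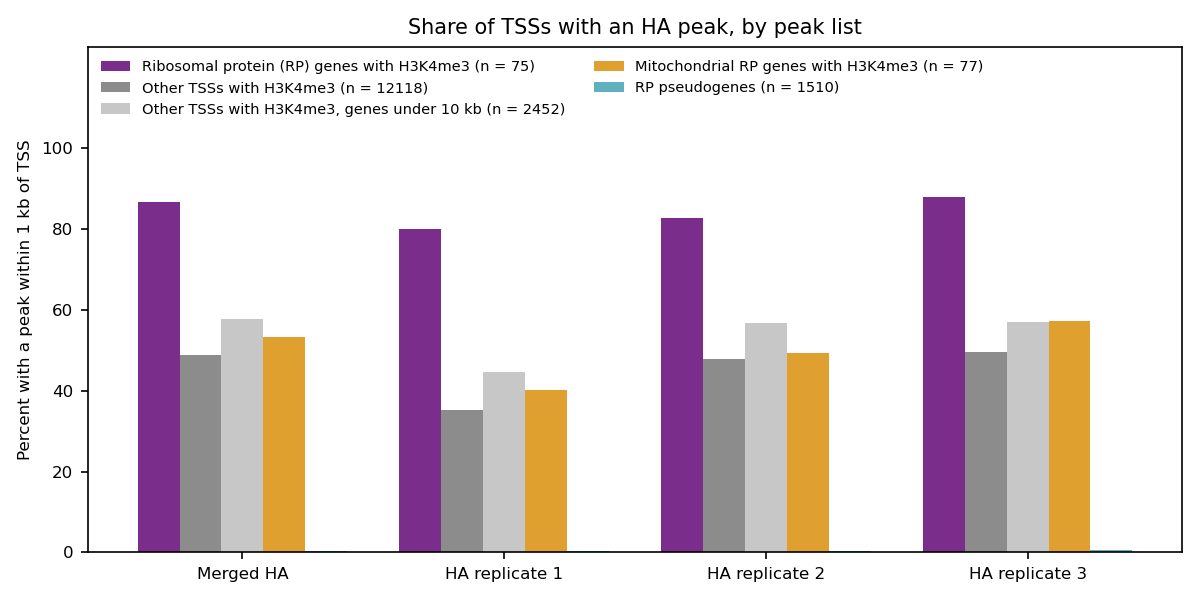
Percent of TSSs with an HA peak within 1 kb, for the merged list and the 3 replicate lists, in 5 groups of TSSs. The bars of the ribosomal protein genes with H3K4me3 reach 80 to 88.0%, and those of the other TSSs with H3K4me3 reach 35.3 to 49.5%. Those of ribosomal protein pseudogenes stay under 1%, but they cover all 1510, of which 1.06% have H3K4me3.

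Members also had wider H3K4me3 regions and shorter genes than most TSSs, so the comparison was repeated with each restricted in turn, for members and others alike. With transcripts under 10 kb alone, which left 2452 other TSSs with H3K4me3, the difference was 31.9 ± 5.40 percentage points (SD, n = 3). With regions of 1 to 4 kb alone, a range chosen after the widths had been seen, it was 32.1 ± 5.68 percentage points. Within the same band of width the order was kept, but the gap was smaller at wider regions. Of 36 members with H3K4me3 regions of 1 to 2 kb, 83.3% had a merged HA region against 51.9% of 5859 other TSSs. Of 28 members with regions of 2 to 3 kb it was 89.3% against 67.8% of 2196 others. At 3 kb or more it was 88.9% of 9 members against 75.4% of 723 others. Only 2 members had regions of 500 to 1000 bp, and both had a merged HA region, against 30.8% of 2474 others.

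Among the 56 members with a peak in every replicate, the mean HA fold enrichment ran from 2.63 to 21.1. The median fold enrichment of members with a peak was 5.93 in replicate 1, 7.64 in replicate 2 and 5.77 in replicate 3, and that of the other TSSs with H3K4me3 and a peak was 4.97, 5.68 and 5.01. The ratio of the medians was 1.23 ± 0.102 (SD, n = 3), above 1 in 3 of 3 replicates (exact two-sided sign permutation test, p = 0.25, the smallest possible). The median member stood at the 71.6, 78.6 and 67.2 percentile of all TSSs with H3K4me3 and a peak in the 3 replicates. The control background under the summits was also higher at members, with medians of 3.00, 3.37 and 3.00 control fragments against 2.00, 2.14 and 2.00 at other TSSs. HA fragments at the summit, recovered from the fold enrichment and p-value of each peak, had medians of 74.5, 89.5 and 68.0 at members and 54.0, 53.0 and 46.0 at other TSSs, a ratio of 1.52 ± 0.158 (SD, n = 3; exact sign permutation test, p = 0.25).

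RPL3, which codes for the large subunit protein that reaches toward the peptidyl transferase centre, had the highest mean. Its fold enrichment was 17.3, 26.95 and 19.1 in replicates 1 to 3 (mean 21.1 ± 5.14, SD, n = 3). RPL10, whose protein joins the large subunit late in its assembly, had 15.96, 21.8 and 19.1 (18.9 ± 2.92). RPS27, a small subunit protein with a zinc finger, had 14.3, 24.1 and 12.02 (16.8 ± 6.39). The lowest replicate of each of these 3 genes lay above the mean of every other member, while their own ranges overlapped. RPS12 had 10.1, 15.1 and 9.75 (11.6 ± 3.01). RPS2, whose protein lies at the mRNA entry of the small subunit, had 10.6, 12.7 and 10.2 (11.2 ± 1.34). The lowest mean among the 56 members with a peak in every replicate was that of RPS26, with 3.15, 2.38 and 2.36.

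**Figure D2:**
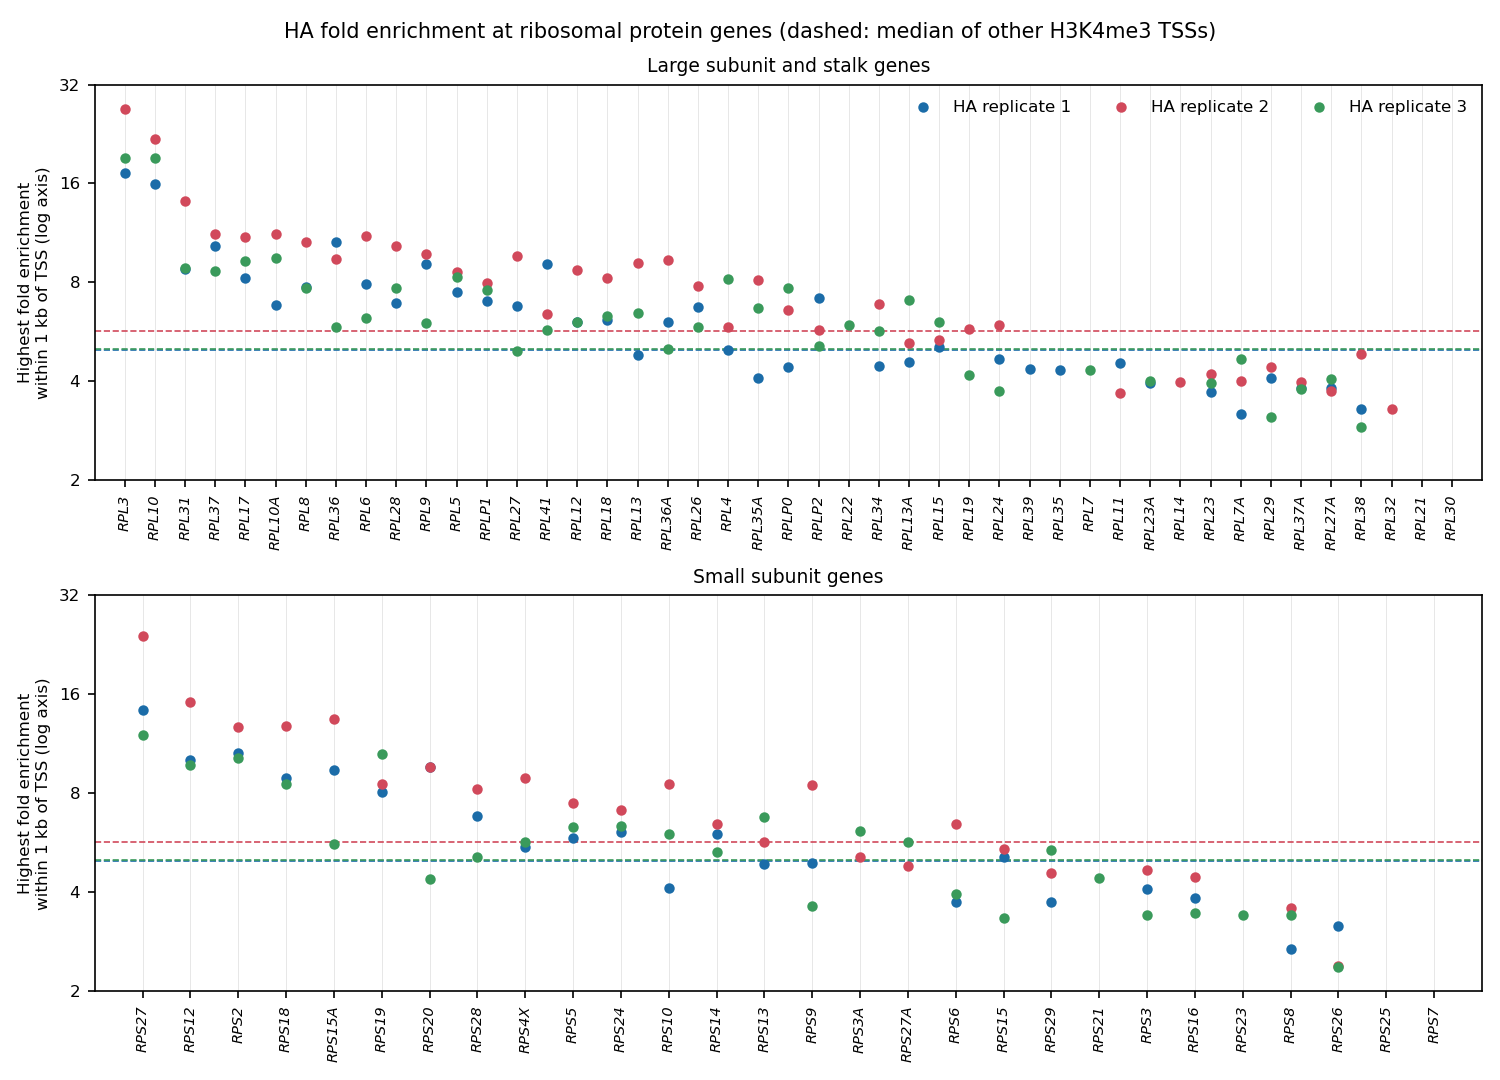
Highest HA fold enrichment within 1 kb of the TSS on a log axis for 73 of the 76 genes, large subunit and stalk genes above and small subunit genes below, with 1 point per replicate and no point where a replicate had no peak. Dashed lines are the medians of the other TSSs with H3K4me3 (4.97, 5.68 and 5.01), RPL3, RPL10 and RPS27 stand above the rest, and RPL21, RPL30, RPS25 and RPS7 have no point.

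The order of the members was similar between replicates. Over the 56 members with a peak in every replicate, Spearman's rho of the fold enrichment was 0.854 between replicates 1 and 2, 0.671 between 1 and 3 and 0.704 between 2 and 3, given as a description, since the 3 lists share the type of control and the base composition of the promoters. Replicate 2 gave the highest value at 43 of these 56 members and at 65.6% of the 3396 other TSSs with a peak in every replicate. RPS15A, RPS9 and RPS20 varied most. RPS15A had 9.42, 13.5 and 5.61, a range of 2.40-fold, RPS9 had 4.91, 8.46 and 3.62, a range of 2.34-fold, and RPS20 had 9.59, 9.61 and 4.38, a range of 2.20-fold. Replicate 3 was the lowest at all 3 of these genes.

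Neither subunit stood out. A peak was found at 82.6, 82.6 and 84.8% of the 46 large subunit and stalk genes in replicates 1, 2 and 3, and at 73.3, 80 and 90% of the 30 small subunit genes. The difference changed sign between replicates (2.22 ± 7.25 percentage points, SD, n = 3; exact two-sided sign permutation test, p = 0.75). Merged regions lay at 39 of the 46 and 26 of the 30 genes. Of the stalk genes, whose proteins P0, P1 and P2 recruit the translation factors, RPLP0 had a fold enrichment of 4.41, 6.58 and 7.67. RPLP1 had 7.01, 7.94 and 7.60, and RPLP2 had 7.17, 5.71 and 5.12. The ranges of the 3 stalk genes overlapped.

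The summits of the HA peaks at members fell mostly on the first stretch of transcribed sequence. The highest summit lay at a median of 112.5, 108.5 and 115.5 bp after the TSS in the 3 replicates, against 64, 82 and 94 bp at other TSSs. It lay 50 to 200 bp after the TSS at 85.0, 83.9 and 74.2% of members with a peak, against 41.8, 39.9 and 44.01% of other TSSs with H3K4me3 and a peak. Of the 56 members with a peak in every replicate, 45 had the highest summit after the TSS in all 3 replicates and 3 had it before the TSS in all 3, where the other TSSs had 43.0% and 32.1%. Those 3 members were RPL13 (at -266, -262 and -254 bp from the TSS), RPL27A (-285, -237 and -255 bp) and RPLP2 (-233, -181 and -247 bp). The TSS of TRIM66 lies within 1 kb of that of RPL27A. At RPL10A the summit lay 113, 120 and 120 bp after the TSS. At RPL41 it moved between separate peaks, from 60 bp after the TSS to 1770 bp after it and to -884 bp.

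When all summits within 500 bp were counted, at TSSs with no other protein coding TSS within 1 kb, 81.0, 71.9 and 68.6% of the summits at members lay on the transcribed side against 59.6, 58.8 and 62.1% at other TSSs. The counts at members were 58, 64 and 70 summits. The difference was 13.7 ± 7.50 percentage points (SD, n = 3; exact two-sided sign permutation test, p = 0.25, the smallest possible), and it was 24.7 ± 10.6 points with the highest summit of each TSS alone.

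**Figure D3:**
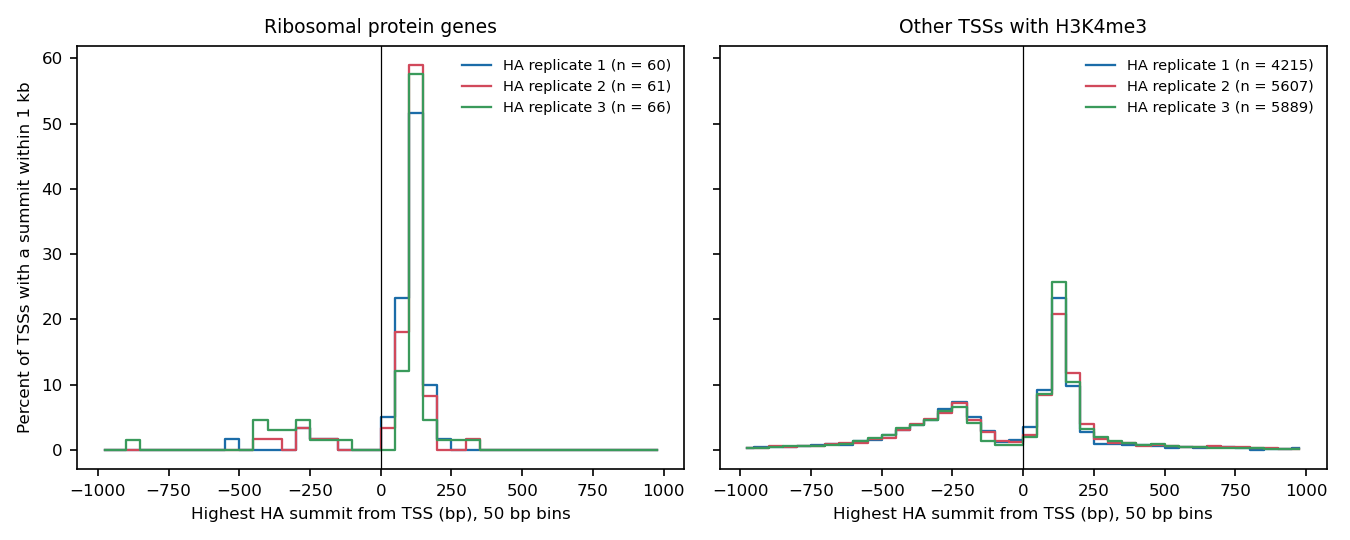
Position of the highest HA summit within 1 kb of the TSS in bins of 50 bp, as percent of TSSs with such a summit, for ribosomal protein genes (left) and other TSSs with H3K4me3 (right), 1 line per replicate. The bin from 100 to 150 bp after the TSS holds 51.7, 59.0 and 57.6% of the ribosomal protein genes and 23.3, 20.8 and 25.8% of the others, which have a further rise before the TSS.

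Merged HA regions at members were about as wide as elsewhere, with exceptions of several kb. Their median width was 516 bp against 495 bp at other TSSs with H3K4me3, a ratio of 1.04. Against genes under 10 kb the ratio was 0.801, so the direction depended on the comparison. Of the 75 members with H3K4me3, 10 (13.3%) had a merged region wider than 2 kb against 3.84% of the other TSSs and 10.9% of those of genes under 10 kb. Among them were RPS12 (7811 bp), RPS2 (5823 bp), RPL18 (5804 bp) and RPL7A (5617 bp). These lay at chr6:133134463-133142273, chr16:2009553-2015375, chr19:49117307-49123110 and chr9:136215099-136220715.

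The share of the canonical transcript under merged HA had a median of 6.50% at members, 0% at the other TSSs with H3K4me3 and 1.40% at those of genes under 10 kb. At least 90% of the transcript was covered at 9 of the 75 members with H3K4me3, against 1.35% of the other TSSs and 6.65% of those of genes under 10 kb. RPS12, RPS2, RPL18 and RPL10A were covered in full, as were RPL41 and RPS28, while RPL7A and RPL10 were covered to 99.2% and 94.99%. RPL10A codes for the protein of the L1 stalk, and RPL41 for the smallest protein of the ribosome.

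The replicate lists covered much less of these 9 genes. The median share of the transcript was 11.6, 17.9 and 14.9% in replicates 1, 2 and 3. RPS12 had 14.7, 17.9 and 17.2%, and RPL18 had 5.54, 14.2 and 5.69%. RPL10A had 26.8, 81.2 and 65.1%, and RPL41 had 17.2, 68.2 and 100%. The merged list joined narrow and broad calls, and no gap in it was shorter than 4032 bp, so a wide merged region can hold several separate peaks. The part of this joining in the widths was not tested beyond these values.

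**Figure D4:**
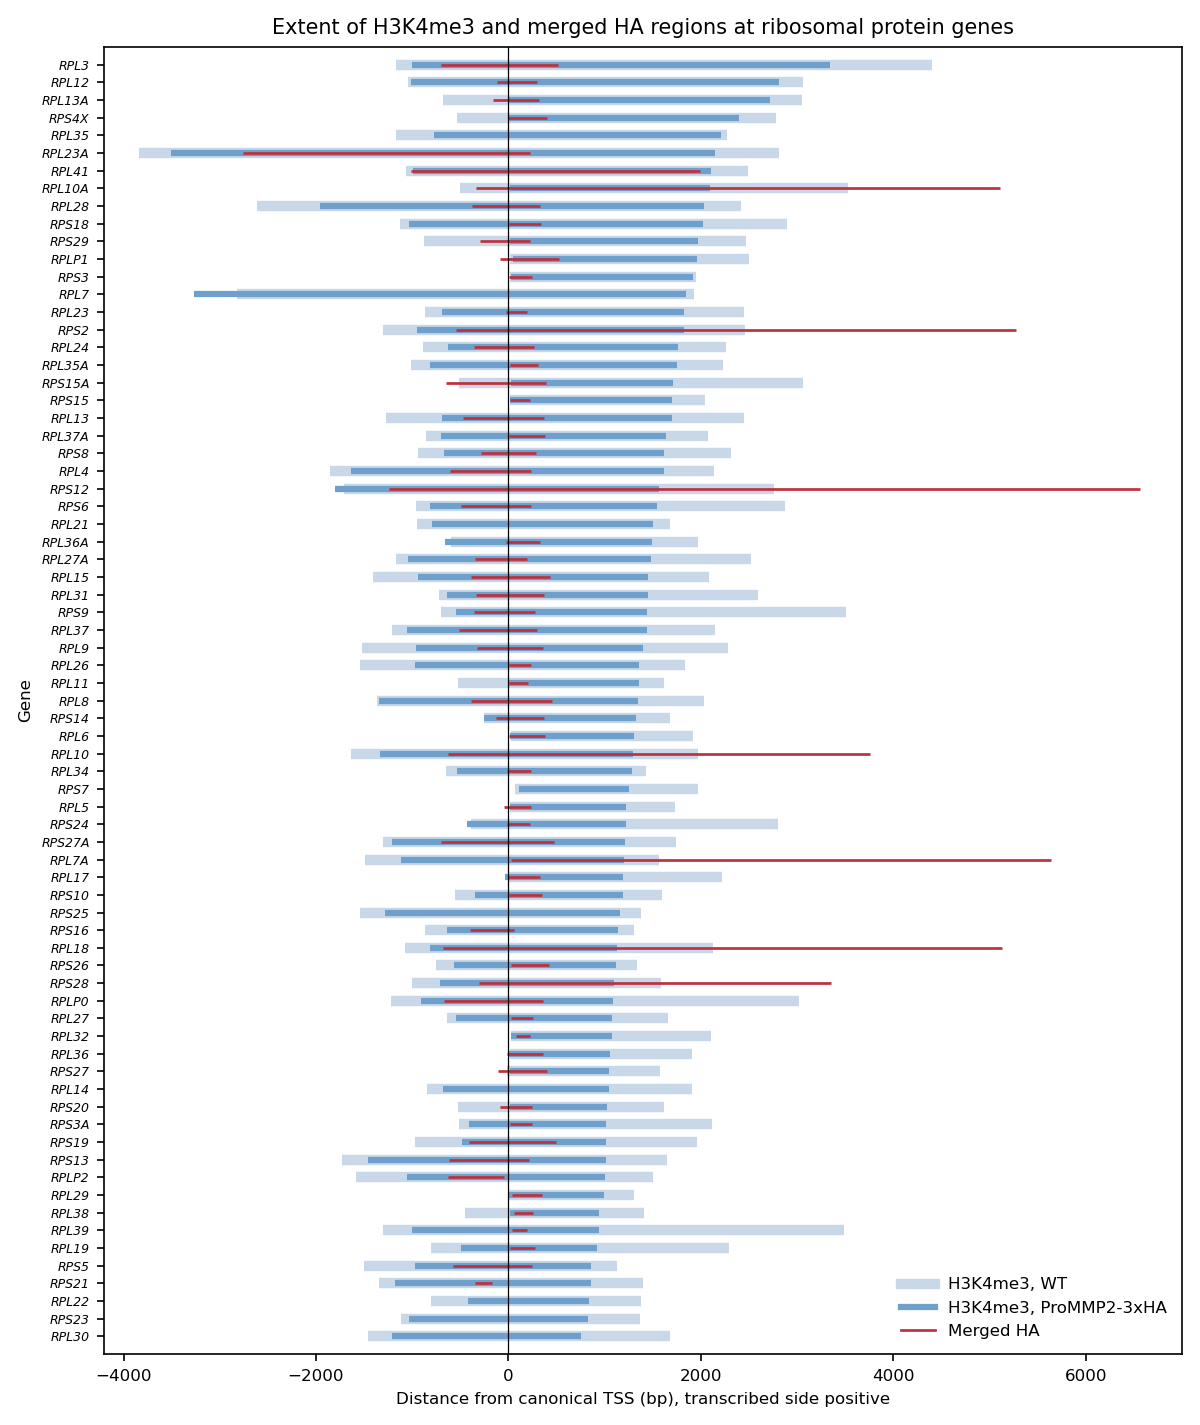
Extent in bp from the canonical TSS of the widest H3K4me3 region of WT cells (pale), the widest of ProMMP2-3xHA cells (blue) and the widest merged HA region (red line) within 1 kb of 73 of the 76 genes, sorted by the downstream reach of H3K4me3 in ProMMP2-3xHA cells. Most red lines end within 500 bp after the TSS, and those of RPS12, RPL7A, RPS2, RPL18 and RPL10A run over 5 kb past it.

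The merged list lacked 11 members. Of these, 10 carried H3K4me3 in ProMMP2-3xHA cells. Reads with a mapping quality under 30 had been removed, which leaves out reads that map to more than 1 place. Of the 31-base words within 1 kb of the TSS, a median of 8.27% (0 to 15.7%) occurred elsewhere in the genome as well at these 10, against 8.70% over all members. RPL22 had 0%, RPL21 0.0507%, RPL30 3.25%, RPS25 7.51% and RPS7 11.6%.

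The H3K4me3 regions of these 10 in ProMMP2-3xHA cells had a median of 1916.5 bp (1151 to 5115 bp), against 2042 bp at the 65 members with a merged region. RPL21, RPL30, RPS25 and RPS7 had no HA peak in any replicate. RPS25, whose protein is needed for initiation at several viral RNAs, had H3K4me3 regions of 2444 bp in ProMMP2-3xHA cells and 2919 bp in WT cells. RPL21 had 2300 and 2629 bp, RPS7 had 1151 and 1894 bp and RPL30 had 1967 and 3141 bp. RPL14 had a peak in replicate 2 alone (fold enrichment 3.98), and RPL35 in replicate 1 alone (4.32). RPL22 (5.95), RPL7 (4.31) and RPS23 (3.42) had a peak in replicate 3 alone. All of these but RPL22 lay below the median of the other TSSs in the same replicate. RPS23 had a merged region in its gene body, over 3.63% of its transcript, but none within 1 kb of the TSS. At the other end, RPL32, RPL39 and RPS21 had a merged region of 148, 155 and 185 bp that overlapped a peak of 1 replicate alone. The merged region overlapped a peak of every replicate at 89.2% of the 65 members with one. At other TSSs with H3K4me3 and a merged region it did so at 59.0%.

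H3K4me3 regions at members were wide, and wider in WT cells. The median width was 1994 bp in ProMMP2-3xHA cells and 3105 bp in WT cells, against 1428 and 1868 bp at other TSSs with H3K4me3. In ProMMP2-3xHA cells the median member stood at the 75.5 percentile of width. The median ratio of WT to ProMMP2-3xHA width was 1.40 at members (order-statistic 95% interval over genes 1.33 to 1.46) and 1.28 at other TSSs, and 74 of 75 members had the wider region in WT cells against 93.1% of the others. With 1 library per cell line, the difference between the cells has no replicate check, and cell line and library cannot be told apart.

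Both edges of the H3K4me3 regions were compared. The downstream edge lay a median of 1349 bp after the TSS in ProMMP2-3xHA cells and 2038 bp in WT cells at members, and 889 and 1104 bp at other TSSs. It lay further downstream in WT cells at 75 of 75 members, at 87.8% of the others and at 75 of 77 mitochondrial ribosomal protein genes (97.4%), where 98.7% also had the wider region in WT cells. At these mitochondrial genes the downstream edge lay at medians of 778 and 1009 bp. The upstream edge lay further out in WT cells at 65 of 75 members and at 89.9% of the others, with medians of 686 and 885 bp before the TSS at members and 500.5 and 679 bp at other TSSs. None of these differences was tested.

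RPL39, whose protein lines the exit tunnel for the new peptide, had the largest ratio, with regions of 1939 bp in ProMMP2-3xHA cells and 4789 bp in WT cells (2.47). RPL19 followed with 1418 and 3105 bp (2.19), and RPS15A with 1677 and 3570 bp (2.13). The smallest ratios were those of RPL7 with 5115 and 4746 bp (0.928), RPS3 with 1889 and 1934 bp (1.02) and RPL12 with 3831 and 4108 bp (1.07). RPL7 was the only member with the wider region in ProMMP2-3xHA cells, and the TSS of RDH10 lies within 1 kb of its own. RPL39 and RPL7 stood in contrast in H3K4me3 but both had an HA peak in 1 replicate only.

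**Figure D5:**
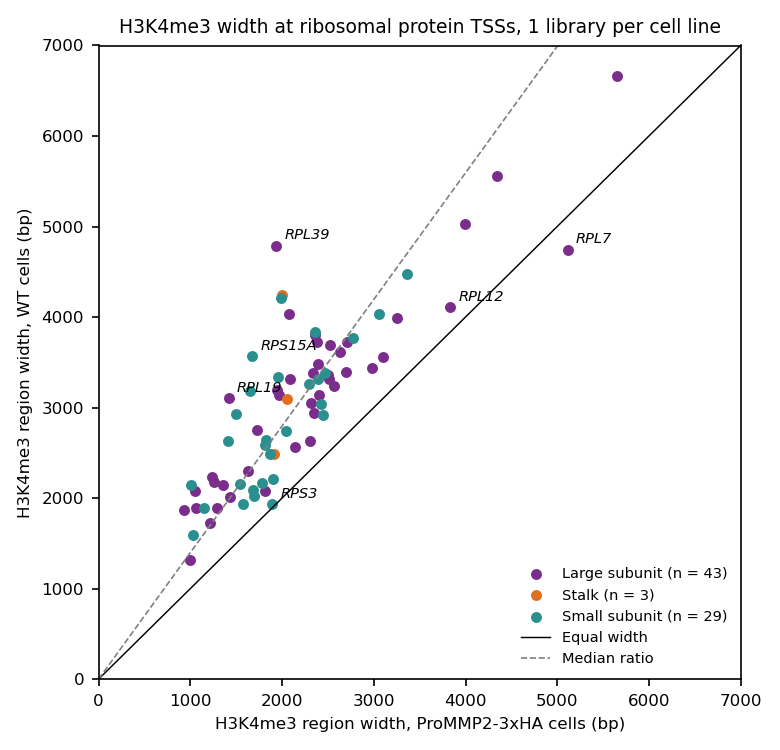
Width in bp of the widest H3K4me3 region within 1 kb of the TSS in ProMMP2-3xHA cells (x axis) and WT cells (y axis), 1 point per ribosomal protein gene and 1 library per cell line. The solid line marks equal width, the dashed line the median ratio of 1.40, and RPL7 is the one point below the solid line.

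HA enrichment followed neither the width of H3K4me3 nor gene length within the members. Over the 56 members with a peak in every replicate, Spearman's rho of the mean fold enrichment was 0.143 with the H3K4me3 width in ProMMP2-3xHA cells, -0.0442 with transcript length and 0.0497 with the GC content of the 250 bases on each side of the TSS. These are descriptions across genes, which are not independent replicates. RPS27 had the narrowest H3K4me3 region of the 5 members with the highest HA (1027 bp), and RPL3 the widest (4341 bp).

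The members shared sequence at the start that the rule did not use. The annotated start base was a C at 61 of 76 members (80.3%) against 10.5% of the other TSSs with H3K4me3, and it lay in a pyrimidine run of at least 5 bases at 60 members (78.9%) against 8.05%. The run reached 25 bases at RPL7A and 22 bases at RPL39. Median GC content around the TSS was 60.8% at members and 68.1% at other TSSs. Of the motifs searched on both strands within 100 bases of the TSS, CCGGAAG, a core of ETS factor sites, was found at 27.6% of members and 16.4% of the other TSSs. AAGATGG, a core of YY1 sites, was found at 17.1 and 6.83%, GGGCGG, a core of SP1 sites, at 47.4 and 67.9%, and TATAAA at 7.89 and 2.43%. At mitochondrial ribosomal protein genes, CCGGAAG was found at 35.9%, AAGATGG at 29.5%, GGGCGG at 47.4% and TATAAA at 1.28%, so the first 3 were as frequent there or more so. A start at C and a pyrimidine run of at least 5 bases were found at 11.5 and 7.69% of those genes.

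The letters TATATA, searched after the sequences above had been seen, lay within 100 bases of the TSS at 6 members (7.89%) and at 0.784% of the other TSSs. They were RPL10, RPL3, RPL36A, RPS18, RPS20 and RPS27, and all 6 had a peak in every replicate. For RPL3, RPL10 and RPS27 this was fixed beforehand, since they had been picked among members with a peak in every replicate. Such peaks were found at 71.4% of the 70 members without TATATA. At other TSSs with H3K4me3 they were found at 49.5% with TATATA and 27.9% without. The median fold enrichment of the 6 members was 11.96, 17.3 and 10.3 in the 3 replicates, against 5.09, 6.72 and 5.69 at the other members with a peak. Without RPL3, RPL10 and RPS27, from whose promoters the letters were picked, the remaining 3 had medians of 8.88, 9.61 and 5.00, below the other members in replicate 3. The groups overlapped: RPL36A had 6.04, 9.36 and 5.00 and RPS20 had 9.59, 9.61 and 4.38, both below the median of the other members in replicate 3. At other TSSs with H3K4me3, the medians were 6.71, 7.36 and 5.98 with TATATA and 4.97, 5.64 and 5.00 without, and a merged region lay at 65.3% of the 95 with it and 48.7% of the 12023 without. No test was made, since the letters were chosen this way.

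Members that host small nucleolar RNAs (snoRNAs) in their introns did not have HA more often. A merged region lay at 24 of the 28 hosts (85.7%) and 85.4% of the 48 other members, and a peak in every replicate at 67.9 and 77.1%. The merged region was wider than 2 kb at 6 hosts (21.4%) and 4 other members (8.33%). At least 90% of the transcript was covered at 5 hosts (17.9%) and 4 other members (8.33%). These differences rest on few genes and were not tested. Another protein coding TSS lay within 1 kb of 17 members, of which 3 were readthrough transcripts of the member itself. Without these 17, a merged region lay at 86.4% of 59 members.

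Genes close to the members by name or function gave lower or similar shares. The mitochondrial ribosomal protein genes, which code for the ribosome inside mitochondria, had a merged region at 53.2% of the 77 with H3K4me3, and a peak at 40.3, 49.4 and 57.1% in replicates 1, 2 and 3. These shares stand beside 80, 82.7 and 88.0% for the cytosolic members and 35.3, 47.7 and 49.5% for other TSSs. Their median fold enrichment was 5.00, 5.49 and 5.32, and their highest summits lay at a median of -197, -4 and -165 bp from the TSS. A pyrimidine run of at least 5 bases held the start at 7.79% of them.

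Annotated pseudogenes named after a member numbered 1510, and most are copies of its mRNA without its promoter. Of these, 6 (0.397%, exact 95% binomial interval over genes 0.146 to 0.863%) had a merged HA region within 1 kb of their 5′ end. All 6 lay within 10 kb of a protein coding TSS, and RPL13P5 lay 86 bp from one. Of the 1265 pseudogenes farther than 10 kb from any protein coding TSS, 0 had a merged region, which allows a share of up to 0.237% (3 counts, counting error only). The replicate lists had 0, 1 and 2 peaks at these 1265. H3K4me3 lay at 1.06% of the 1510 in ProMMP2-3xHA cells and at 1.46% in WT cells. Of the 6 pseudogenes with a merged region, 4 had H3K4me3 in ProMMP2-3xHA cells.

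Of the ribosomal components that the naming rule leaves out, RPSA, a small subunit protein, had a fold enrichment of 6.43, 6.99 and 8.0. RACK1, a scaffold on the small subunit, had peaks in replicates 2 and 3 (4.30 and 6.55). Both had a merged region. FAU, which joins a ubiquitin-like protein to a small subunit protein, had a peak in replicate 3 (4.03) and no merged region. The 8 paralogs of members, several of which are known for expression in testis or muscle, had H3K4me3 at 7 and a merged region at 4, with median fold enrichments of 4.27, 5.62 and 4.04 where they had a peak. RPL3L, the muscle paralog of RPL3, had neither H3K4me3 nor HA. Merged regions lay at 4 of the 7 genes of translation elongation factors and at 16 of 21 genes on a list of further TOP mRNAs, all with H3K4me3. The lists share 5 genes, and without these a merged region lay at 12 of 16. Where they had a peak, the elongation factor genes had median fold enrichments of 6.06, 7.97 and 6.25 in replicates 1 to 3. The TOP list had 5.44, 6.40 and 4.97, and members had 5.93, 7.64 and 5.77. RACK1 is on the TOP list too, and 18 of its 21 genes had a pyrimidine run of at least 5 bases at the scored start. EEF1A1, the most abundant elongation factor, had 15.1, 19.3 and 14.7, within the range of RPL3, RPL10 and RPS27 in replicates 1 and 3 and below it in replicate 2, while EEF1B2 had no HA peak at a TSS with a pyrimidine run of 17 bases.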

How the data were processed

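Peak lists of native ChIP-Seq were analysed for 5 of the 6 samples, with 1 list of the merged HA replicates. According to the study's methods and the labels, the authors trimmed reads with Trim Galore 0.6.0, aligned pairs to hg19 (GRCh37) with Bowtie2 2.3.5.1, kept mapping quality 30 or above with SAMtools 1.9, removed duplicates with Picard and called peaks with MACS2 3.0.0a6 at q of 0.05 and a minimum length of 147 bp. Each deposited replicate list gives a fold enrichment (a ratio to local background), −log10 p and −log10 q values and a score (10 times −log10 q) per summit. The deposited H3K4me3 and merged HA lists join narrow and broad calls and hold intervals alone, without a value, so their height is unknown. The depth of the HA libraries is not given by the lists. HA libraries held 3.57, 2.81 and 3.00 times the fragments of their control, as recovered from the deposited fold and p-values for 84.1, 89.3 and 88.7% of peaks.

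TSSs were the 5′ ends of canonical transcripts in GENCODE version 44 lifted to GRCh37 (gene ends for 279 genes without one). Overlaps, medians and tests were computed with Python 3.11.15, pandas 2.3.3, numpy 2.4.6 and scipy 1.17.1. Named genes were the 5 with the highest mean fold enrichment, the 5 widest merged regions, the 5 with most of the transcript under merged HA, the stalk genes, those without a merged region or H3K4me3, the 3 highest and 3 lowest H3K4me3 ratios, the 3 most variable, and RPSA, FAU and RACK1. Some genes that this rule names are not reported here. Other genes named (RPS26, RPL13, RPL27A, RPL32, RPS21, RPL41, RPS28, the TATATA genes, EEF1A1, EEF1B2, RPL3L and RPL13P5) were chosen after their values were seen. Differences were tested over 3 replicates by an exact sign permutation. Scoring was tested on simulated data. The members and lists were chosen with earlier results of these data known. The alternatives are given in the closing section.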

Additional observations from a re-analysis of the deposited data

How the results depend on the processing

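Each of the 9 results was recomputed under its alternatives, 54 in all, of which 52 were planned and 2 (H3K4me3 regions of 1 to 4 kb) were chosen after seeing the data, and of the 36 of tested results 34 kept their direction. Of the 18 of results without a test, 15 stayed within the interval of the value. These intervals run over genes and hold no variation between replicates. Within its interval, the ratio of merged HA widths (1.04) still crossed 1, at 0.801 for genes under 10 kb and 0.885 for regions found in every replicate. The share of members with a merged HA region (85.5%) was 59.2% when the region had to cover the TSS. Among TSSs with H3K4me3, such a region lay at 45 of 75 members and at 26.9% of the others, so both shares fell. The share of members was 65.8% when the region had to be as wide as the narrowest peak of replicate 2. This removes short regions by construction, and the share at that width was not compared with other TSSs. The share of pseudogenes with a merged region was 0% farther than 10 kb from a protein coding TSS. The difference between the subunits was -1.29 percentage points without TSSs that have a neighbour within 1 kb, and 5.60 with peaks at q of 0.01 or less. Leaving out each replicate in turn gave 36.7 to 41.6 percentage points for the HA share of members over other TSSs, 1.17 to 1.27 for the ratio of fold enrichment, 9.78 to 17.3 points for downstream summits and -1.30 to 5.94 points for the subunits, where the sign changed without replicate 1. No paired analysis was possible because only 1 group has replicates. With 3 replicates the sign test cannot pass 0.05, so it says nothing on stability, and a missing peak is one not called at this depth, not an absence of HA.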
